A study of Homo sapiens with 6 samples.

Results

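DNA is copied once per cell cycle by proteins that act in a fixed order. The origin recognition complex, CDC6 and CDT1 load the MCM2-7 helicase ring onto DNA in G1, CDC45 and the GINS complex turn it into an active helicase in S phase, and polymerases, the sliding clamp PCNA and its loader RFC then copy both strands. Nucleotide-making enzymes supply the precursors and chromatin assembly factor 1 (CAF-1) wraps the new DNA into nucleosomes. Most of the genes are known targets of E2F transcription factors and are transcribed in cells that are entering or passing through S phase.

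A list of 33 such genes, covering origins, helicase, polymerases, clamp, nucleotide synthesis and chromatin assembly, was matched by symbol to the 17211 genes of the deposited table. It found 32 of them. UHRF1 was not matched to an identifier and was not analysed here. The samples were poly(A) RNA libraries of CAOV2, a human ovarian cancer cell line whose titles also call the cells primary. The siYAP group (3 libraries) was transfected with 100 pmol of an siRNA reagent against YAP, and the siNT group (3 libraries) with 100 pmol of a non-targeting control siRNA from another supplier, both with 6 µL of a lipid reagent for 2 days and collection at day 3. YAP is a transcriptional co-activator held in check by the Hippo kinases. The single contrast, siYAP against siNT, asks how the transcriptome differs when YAP is silenced. It comes from 1 cell line, and the siRNA target and the supplier cannot be told apart. The labels call the libraries biological replicates without saying whether they came from separate cultures, so the p-values speak only to the spread among these 6 libraries, which may be technical.

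The values are normalized read counts, that is, reads per gene divided by 1 size factor per library, and between 25478595 and 31790340 whole reads stood behind each library. The lowest count behind any of the 32 genes was 333 reads, for POLE2. YAP1 was at 5992 ± 213 in siNT and 299.6 ± 24.8 in siYAP (SD, n = 3). Epithelial keratins were abundant, with the 5 epithelial markers EPCAM, KRT8, KRT18, KRT19 and CDH1 summing to between 60983 and 81381 normalized counts in each library. The ovarian carcinoma markers PAX8, MUC16 and MSLN were near the floor, with sums of 30.4 to 59.9 in siNT and 34.4 to 41.9 in siYAP. Sums for the 3 listed immune markers were 142.6 to 144.5 in siNT and 62.5 to 71.3 in siYAP. Those for the 4 listed fibroblast markers (COL1A1, COL3A1, LUM and PDGFRB) were 4576 to 5319 and 13062 to 13558, and the single listed endothelial marker, ESAM, was at 1673 to 1873 and 1261 to 1338. The epithelial, fibroblast, immune and endothelial sums thus moved with the group, with epithelial sums of 74926 to 81381 in siNT and 60983 to 67183 in siYAP. Single markers went both ways: KRT18 (log2 -0.68) and KRT19 (log2 -0.29) fell, EPCAM (log2 0.74) and CDH1 (log2 0.93) rose, and the abundant KRT8 was not called (log2 -0.09). Within the higher fibroblast sum, COL3A1 (log2 2.22), LUM (log2 1.37) and PDGFRB (log2 0.99) rose and COL1A1 fell (log2 -0.21). The defining markers PTPRC, CD3E, DCN, PECAM1, VWF, CDH5 and WT1 were not matched, and the part of these shifts in the results was not tested.

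Promoters of 7 members are shown before the values, since nearly all the members moved in 1 direction. RefSeq start sites on GRCh38.p14 were found for 29 of the 32 genes. Each stretch below holds the 160 bases before the first listed start, read 5′ to 3′ on the gene's strand. Capitals mark 2 kinds of letters on either strand that lie wholly inside the stretch: those of an E2F motif (TTTCCCGC, TTTGGCGC, TTTCGCGC or TTTGCCGC) and those of an NF-Y box (CCAAT, or ATTGG on the other strand). NF-Y is a factor that binds many cell cycle promoters. RRM2 is shown as the gene that fell most, and MCM7 and MCM6 as helicase genes with a large and a small fall. CDT1, TYMS and PCNA are shown for licensing, nucleotide synthesis and the clamp, and GINS1 as the gene that rose.
RRM2, chr2:10122579-10122738, plus strand: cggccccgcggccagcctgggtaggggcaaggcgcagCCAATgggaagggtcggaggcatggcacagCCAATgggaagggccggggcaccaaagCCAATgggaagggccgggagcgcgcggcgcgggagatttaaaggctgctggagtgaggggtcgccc
MCM7, chr7:100101398-100101557, minus strand: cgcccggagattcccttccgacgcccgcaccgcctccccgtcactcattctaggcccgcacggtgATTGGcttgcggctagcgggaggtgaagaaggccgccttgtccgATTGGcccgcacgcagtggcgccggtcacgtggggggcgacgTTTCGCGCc
MCM6, chr2:135876444-135876603, minus strand: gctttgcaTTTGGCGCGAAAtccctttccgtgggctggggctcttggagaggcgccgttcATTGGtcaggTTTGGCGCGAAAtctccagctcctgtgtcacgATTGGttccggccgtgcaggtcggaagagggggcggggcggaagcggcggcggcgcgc
CDT1, chr16:88803629-88803788, plus strand: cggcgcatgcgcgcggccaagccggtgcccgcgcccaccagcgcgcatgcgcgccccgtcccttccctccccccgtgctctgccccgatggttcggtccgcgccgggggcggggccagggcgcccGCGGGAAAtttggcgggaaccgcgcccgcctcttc
TYMS, chr18:657493-657652, plus strand: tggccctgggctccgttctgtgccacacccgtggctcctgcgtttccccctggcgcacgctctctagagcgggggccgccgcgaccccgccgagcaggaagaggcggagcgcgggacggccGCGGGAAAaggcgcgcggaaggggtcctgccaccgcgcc
PCNA, chr20:5126623-5126782, minus strand: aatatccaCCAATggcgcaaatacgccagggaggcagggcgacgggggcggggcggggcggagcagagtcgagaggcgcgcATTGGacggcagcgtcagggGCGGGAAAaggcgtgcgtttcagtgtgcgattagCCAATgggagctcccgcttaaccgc
GINS1, chr20:25407513-25407672, plus strand: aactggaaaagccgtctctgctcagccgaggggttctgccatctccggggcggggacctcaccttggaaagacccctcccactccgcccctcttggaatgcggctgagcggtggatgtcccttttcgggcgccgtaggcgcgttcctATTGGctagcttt

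As a group the replication genes were lower in siYAP. Of the 32 genes, 30 fell, GINS1 rose and RFC4 was not called (limma on log2(value + 1), Benjamini-Hochberg adjusted p under 0.05 over all 17200 tested genes). Over all tested genes 28.1% were called lower and 28.6% higher. The 3 siYAP libraries lay below the 3 siNT libraries in 30 of the 32 genes, GINS1 and RFC3 being the exceptions, and in 30.6% of all tested genes. The median log2 fold change of the 32 genes was -0.49 and that of all tested genes 0.004. Most of the falls were moderate: 8 of the 32 genes were lower by at least 1.5-fold and RRM2 alone by at least 2-fold. Over all tested genes these shares were 8.89% and 2.82%.

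Summed over the 32 genes, siNT libraries 1 to 3 held 137958, 138028 and 141420 normalized counts, and the siYAP libraries held 92357, 92067 and 92469. The siYAP sum was 66.3% of the siNT sum, and the 3 libraries of a group lay close together. As a share of all normalized counts, the genes took 0.456% ± 0.0035 in siNT and 0.321% ± 0.00056 in siYAP (SD, n = 3). In these bulk libraries, fewer cells in S phase and less of these RNAs per cell cannot be told apart. With libraries scaled to equal totals, 28 of the 32 genes were lower and 1 higher with a median of -0.40, while over all genes 3701 were then lower and 6051 higher, against 4841 and 4926 with the deposited scaling.

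**Figure D1:**
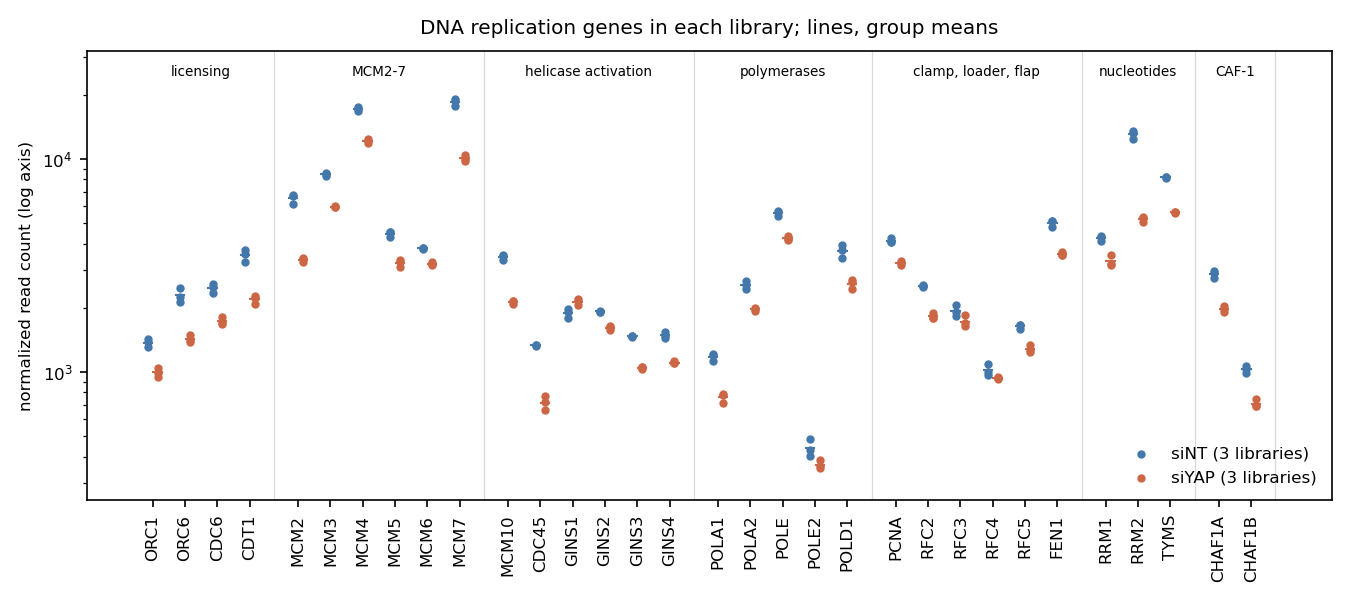
Normalized read count (log axis) of each of the 32 DNA replication genes in the 3 siNT and 3 siYAP libraries, ordered by role; points are libraries and short lines group means. The siYAP points lie below the siNT points in 30 genes, overlap them in RFC3 and lie above them in GINS1.

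**Figure D2:**
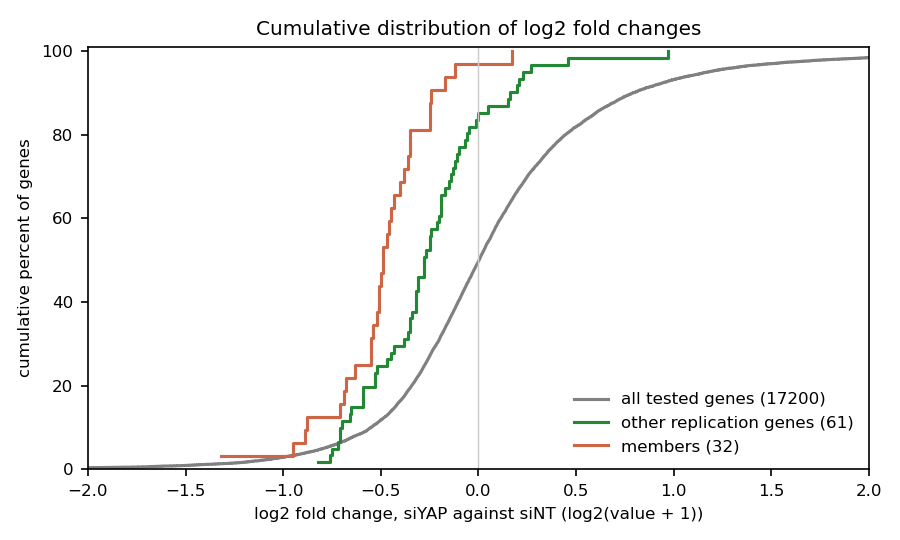
Cumulative percent of genes (vertical axis) at or below each log2 fold change of siYAP against siNT (horizontal axis, limited to the range shown) for all 17200 tested genes, 61 other replication genes and the 32 members. The curve of the members lies to the left, with a median of -0.49 against 0.004 for all tested genes.

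All 4 origin recognition and licensing genes fell, with log2 fold changes between -0.69 and -0.46. CDT1, which brings the MCM ring to origins, had 3270, 3568 and 3747 normalized counts in siNT and 2263, 2229 and 2076 in siYAP. The groups did not overlap, and the log2 fold change was -0.69 (standard error 0.0533, limma adjusted p = 2.98e-10). ORC1, the largest subunit of the origin recognition complex, fell least, from 1301, 1384 and 1421 to 950.6, 1041 and 989.2 (log2 -0.46). ORC6, the smallest subunit of that complex, was at 62.1% of its siNT level (log2 -0.68), and CDC6, the ATPase that loads MCM rings together with CDT1, at 69.7% (log2 -0.52).

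The 6 subunits of the MCM2-7 ring, the motor of the replicative helicase, all fell, but not to the same degree. MCM2 had 6127, 6669 and 6747 normalized counts in siNT and 3386, 3409 and 3295 in siYAP, 51.6% of the control level (log2 -0.95, standard error 0.0462, limma adjusted p = 1.15e-13). MCM6 fell least, from 3825, 3811 and 3764 to 3158, 3205 and 3290 (log2 -0.24, standard error 0.0436, limma adjusted p = 6.54e-05). MCM7 (log2 -0.88) was close to MCM2, and MCM3 (log2 -0.51), MCM4 (log2 -0.50) and MCM5 (log2 -0.45) lay between. No subunit had a siYAP library within the siNT range.

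The unequal falls changed the make-up of the ring's transcripts. To compare levels between subunits, counts were divided by the annotated exon length of each gene. MCM7 was the most abundant of the 6, at 4215 ± 147 normalized counts per kilobase in siNT and 2293 ± 66.8 in siYAP (SD, n = 3), and MCM5 the least, at 608 ± 18.6 and 444 ± 16.6. The rank of MCM5 depends on the division by length. In counts MCM6 was the lowest in siNT, at 3800 ± 31.8 against 4458 ± 137 for MCM5 (SD, n = 3). The share of MCM7 in the summed level per kilobase was 35.6% ± 0.591 in siNT and 30.3% ± 0.583 in siYAP. That of MCM6 went from 7.79% ± 0.208 to 10.3% ± 0.305 (SD, n = 3), and that of MCM2 from 11.2% ± 0.386 to 9.07% ± 0.168. The shares of MCM3, MCM4 and MCM5 were higher in siYAP, and for each of the 6 subunits the shares in the 2 groups did not overlap. Shares within a complex add up to the whole, so lower shares of MCM7 and MCM2 raise the others, whose own levels fell. These shares are a description with no test, and the exon lengths count every annotated isoform.

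**Figure D3:**
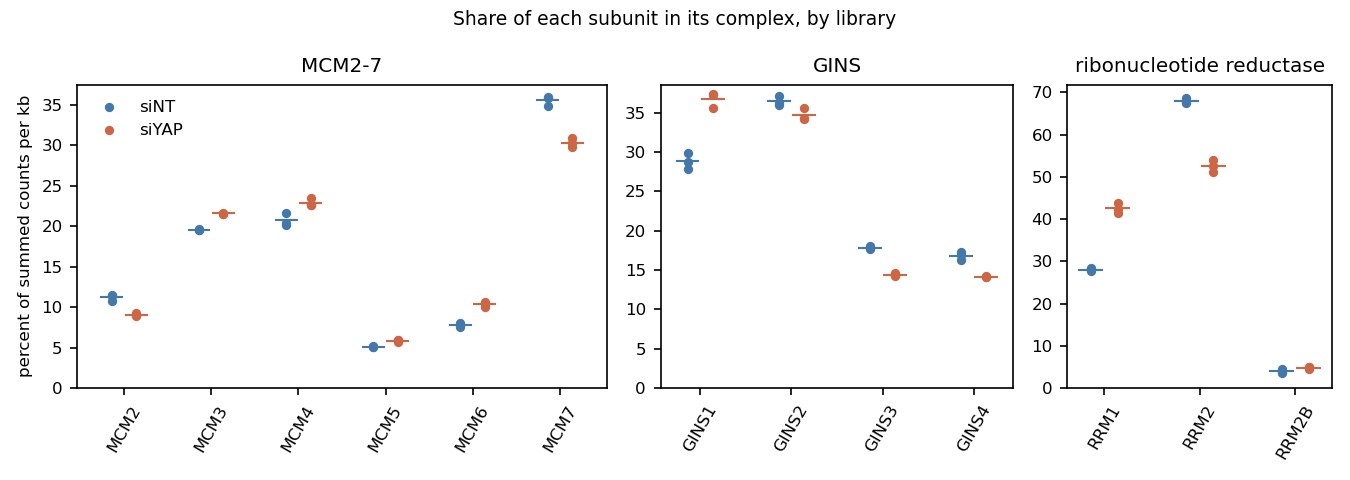
Share of each subunit (percent of the summed normalized counts per kilobase of its complex, vertical axis) in each siNT and siYAP library for MCM2-7, GINS and ribonucleotide reductase; points are libraries and short lines group means. The shares of MCM7, MCM2 and RRM2 are lower, and those of MCM6, GINS1 and RRM1 higher, in all 3 siYAP libraries.

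Of the 6 genes that activate the helicase, 5 fell and GINS1 rose. CDC45, which joins the MCM ring and GINS to form the active helicase, had 1339, 1321 and 1332 normalized counts in siNT and 718.6, 770.9 and 663.9 in siYAP (log2 -0.89, standard error 0.0603, limma adjusted p = 3.04e-11). MCM10, needed to start unwinding, was at 61.3% of its siNT level (log2 -0.71). The 4 GINS genes encode 1 complex with 1 copy of each subunit. GINS2 (log2 -0.25), GINS3 (log2 -0.49) and GINS4 (log2 -0.43) fell.

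GINS1 (ENSG00000101003, chromosome 20, 25407727 to 25452628, plus strand, GRCh38) had 1976, 1789 and 1912 normalized counts in siNT and 2050, 2139 and 2205 in siYAP. All siYAP libraries lay above the siNT libraries, by a small margin. The log2 fold change was 0.17 with a 95% interval of 0.07 to 0.28 (limma adjusted p = 0.00668), and without siNT replicate 2, the lowest library, it was 0.13 and no longer called (limma adjusted p = 0.0531), as also in limma without trend (adjusted p = 0.0565). Per kilobase, the share of GINS1 in the GINS transcripts was 29.9%, 27.8% and 28.8% in siNT and 35.6%, 37.3% and 37.4% in siYAP. GINS3 went from 17.9% ± 0.191 to 14.4% ± 0.219 (SD, n = 3).

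All 5 polymerase genes fell, with log2 fold changes from -0.63 to -0.25. POLA1, the catalytic subunit of the polymerase that lays down primers, had 1208, 1123 and 1195 normalized counts in siNT and 712.3, 784.7 and 777.1 in siYAP (log2 -0.63, standard error 0.0595, limma adjusted p = 6.65e-09). Its accessory subunit gene POLA2 fell by 0.38 on the log2 scale. POLE, the catalytic subunit of the leading-strand polymerase (log2 -0.40), and POLD1, that of the lagging-strand polymerase (log2 -0.51), also fell. POLE2, a POLE partner subunit and the member with the lowest counts, was at 482.7, 429.7 and 402.4 in siNT and at 354.3, 362.2 and 385.2 in siYAP (log2 -0.25, limma adjusted p = 0.0111). The gap between the groups was narrow, and without siNT replicate 1, its highest library, the log2 fold change was -0.18 and not called (limma adjusted p = 0.0694). The call was also lost with equal totals (log2 -0.16, limma adjusted p = 0.0972).

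Among the clamp, clamp loader and flap nuclease genes 5 of 6 fell, and the falls were the smallest of any role by median (log2 -0.35). FEN1, the nuclease that trims lagging-strand fragments, had 4805, 5118 and 5121 normalized counts in siNT and 3666, 3522 and 3553 in siYAP (log2 -0.49, limma adjusted p = 4.85e-09). PCNA, the sliding clamp, was at 78.6% of its siNT level (log2 -0.35). Of the small RFC subunits, which open the clamp ring, RFC2 (log2 -0.47) and RFC5 (log2 -0.35) fell without overlap between groups.

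RFC3 was at 2052, 1827 and 1907 in siNT and at 1634, 1687 and 1839 in siYAP, so that siYAP replicate 3 lay within the siNT range. Its log2 fold change was -0.17 (limma adjusted p = 0.0155). The call was lost without siNT replicate 1 (log2 -0.12, adjusted p = 0.0564), siYAP replicate 1 (log2 -0.13, adjusted p = 0.0765) or siYAP replicate 2 (log2 -0.15, adjusted p = 0.0658; limma in each case), and with equal totals (log2 -0.08, limma adjusted p = 0.257).

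RFC4 had 1090, 962 and 995.7 in siNT and 931.6, 922.9 and 947.3 in siYAP. Every siYAP library was below every siNT library, but the difference did not pass the test (log2 -0.12, 95% interval -0.24 to 0.00, limma adjusted p = 0.0901), and it did without siNT replicate 2 (log2 -0.16, limma adjusted p = 0.0462). RFC4 overlaps EIF4A2 on the other strand, which rose from 5011 ± 425 to 6802 ± 378 normalized counts (SD, n = 3). The strand setting of the counting is not given in the sources used here, so reads of RFC4 and EIF4A2 may not have been kept apart.

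The 3 genes of nucleotide synthesis fell. RRM2 (ENSG00000171848, chromosome 2, 10120698 to 10131419, plus strand, GRCh38) encodes the small subunit of ribonucleotide reductase, the enzyme that turns ribonucleotides into deoxyribonucleotides. It had 13222, 12441 and 13481 normalized counts in siNT and 5052, 5329 and 5247 in siYAP, 39.9% of the control level and the largest fall of the 32 genes. The 95% interval of its log2 fold change of -1.32 was -1.41 to -1.23. RRM1, the large subunit, had 4320, 4091 and 4277 in siNT and 3189, 3207 and 3530 in siYAP (log2 -0.36, standard error 0.0484, limma adjusted p = 1.67e-06).

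Per kilobase of exon, RRM2 stood at 2451 ± 102 and RRM1 at 1013 ± 29.2 in siNT, and at 979 ± 26.7 and 792 ± 45.9 in siYAP (SD, n = 3). Of the reductase transcripts, RRM2 made up 67.9% ± 0.614 in siNT and 52.6% ± 1.41 in siYAP. RRM2B, the alternative small subunit induced by p53 and not a member, fell as well (log2 -0.66) and was at 144 ± 16.7 and 90.8 ± 5.07 per kilobase. TYMS, which makes thymidylate, fell from 8237, 8197 and 8142 to 5621, 5634 and 5544 normalized counts (log2 -0.55, standard error 0.0403).

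The measured chromatin assembly genes encode 2 subunits of CAF-1, a chaperone that PCNA recruits to new DNA, and both fell to nearly the same degree. CHAF1A, the large subunit, had 2757, 2916 and 2970 normalized counts in siNT and 2033, 1900 and 1972 in siYAP (log2 -0.55). CHAF1B, the middle subunit, had 1069, 1036 and 984.9 in siNT and 687.8, 688 and 749.5 in siYAP (log2 -0.54). The groups did not overlap in either gene.

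Per kilobase in siNT, MCM7 was highest of the 32 genes, followed by TYMS at 3317 ± 19.2 and PCNA at 2802 ± 66.8, and POLA1 at 186 ± 7.22 and POLE2 at 148 ± 13.8 were lowest (SD, n = 3). MCM4 (2454 ± 59.6) and RRM2 (2451 ± 102) had similar values in siNT, whereas in siYAP MCM4 was at 1732 ± 37.8 and RRM2 at 979 ± 26.7. Comparisons between genes rest on exon lengths that count every annotated isoform, and the SD does not cover that error. Across the 32 genes the control level per kilobase (log2) and the log2 fold change had a Pearson r of -0.35 and a Spearman rho of -0.28, given as a description since the genes share libraries. The spread between libraries was small, with a median coefficient of variation of 3.57% in siNT and 3.09% in siYAP and a highest value of 9.32%, for POLE2 in siNT.

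Other genes of the pathway were mostly lower too. Of 61 further replication genes, 44 fell, 7 rose and 10 were not called, with a median log2 fold change of -0.28. Over all tested genes 28.1% were called lower and 28.6% higher, with a median of 0.004. These counts depended on the processing more than those of the members. With equal totals 35 of the 61 were lower and 8 higher, beside 3701 and 6051 of all tested genes. In limma without trend 41 were lower and 5 higher, beside 4212 and 4324 of all tested genes. Among fork protection genes, CLSPN, the checkpoint adaptor claspin (log2 -0.71), and TIMELESS (log2 -0.53) fell. RPA2, the middle subunit of the single-strand binding protein RPA, went from 1784, 1756 and 1730 normalized counts to 1021, 985 and 982.5 (log2 -0.82, limma adjusted p = 7.58e-12). Its partners differed by much less: RPA1 was at 6383 ± 139 and 6326 ± 145 and RPA3 at 849 ± 27.8 and 812 ± 36.3 (SD, n = 3), and neither was called.

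SAMHD1, an enzyme that breaks down deoxyribonucleotides, rose from 2509, 2519 and 2568 normalized counts to 4901, 4933 and 5054 (log2 0.97, standard error 0.0434, limma adjusted p = 3.14e-14). It was the largest log2 change of the 61 genes, in the direction opposite to the synthesis enzymes RRM1, RRM2 and TYMS and to DTYMK, thymidylate kinase (log2 -0.76). The primase subunit PRIM1 (log2 -0.72), the polymerase epsilon subunit POLE3 (log2 -0.59) and the MCM paralog MCM8, which acts in recombination (log2 -0.59), fell. So did the cohesion-linked clamp loader subunit DSCC1 (log2 -0.53), RNASEH2C of ribonuclease H2 (log2 -0.32, as for RNASEH2A), RECQL4 (log2 -0.45), MTBP (log2 -0.34) and the CDT1 inhibitor geminin, GMNN (log2 -0.25).

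The histone chaperone NASP (log2 -0.75), the third CAF-1 subunit gene RBBP4 (log2 -0.59) and the topoisomerases TOP1 (log2 -0.71) and TOP2A (log2 -0.28) also fell. ASF1A, also a chromatin assembly gene, rose (log2 0.46), while ASF1B of the same role fell (log2 -0.36). DONSON (log2 0.27), ATR (log2 0.23) and RNASEH2B (log2 0.21) rose. In the origin recognition complex, ORC1 and ORC6 differed in direction from ORC2 (log2 0.16, limma adjusted p = 0.0126) and ORC4 (log2 0.20, limma adjusted p = 0.00685), which rose. ORC5 fell by a call close to the threshold (log2 -0.14, limma adjusted p = 0.0446), and ORC3 was not called (log2 0.05). Of the 8 E2F genes, 7 fell and E2F4 was not called (log2 -0.06), beside 28.1% of all tested genes called lower. E2F1 (log2 -0.88), E2F2 (log2 -0.97) and E2F3 (log2 -0.52) encode activators of replication genes. E2F5 fell most of the 8 (log2 -2.03), and E2F7 (log2 -0.32) and E2F8 (log2 -0.38) fell by less. E2F6 fell by a call close to the threshold (log2 -0.16, limma adjusted p = 0.0417).

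The E2F letters were present in 16 of the 29 promoters (55.2%) and in 600 of 11716 promoters of tested genes (5.12%), in windows from 250 bases before to 50 after the first listed start. Over the first starts of all 27305 genes in the table the share was 3.33%. In 14 of the 16 the match began within 60 bases of the start, as in CDT1, TYMS, PCNA and MCM7 above. MCM6 has 2 stretches in which the motif reads on both strands and overlaps itself. The NF-Y letters were present in 17 of 29 promoters (58.6%), against 36.2% of the promoters of tested genes, and 9 promoters held both. RRM2 has 3 NF-Y boxes and none of the E2F letters in this window, and POLD1, RFC2, RFC4, FEN1 and CHAF1B hold neither.

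Letters for 2 other motifs were less frequent. The TEAD motif (GGAATG or its complement), named for the DNA-binding partners of YAP, was present in 4 of 29 promoters (13.8%) and in 10.9% of those of tested genes. The cell cycle element CHR (TTTGAA or TTCGAA) was in 2 of 29 (6.9%) and in 11.4%. By presence of the E2F letters, the median log2 fold change was -0.44 in the 16 genes with them and -0.51 in the 13 without. Only exact matches were counted, and near forms, such as tttggcgg in CDC45, fall among those without. The split is thus by letters and does not separate genes with and without E2F sites. GINS1, which rose, holds the NF-Y letters and, just after its start and so outside the stretch shown, the E2F letters, and among all tested genes the medians were -0.047 with the E2F letters and 0.011 without. A match describes the letters in the window and says nothing of binding in these cells.

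**Figure D4:**
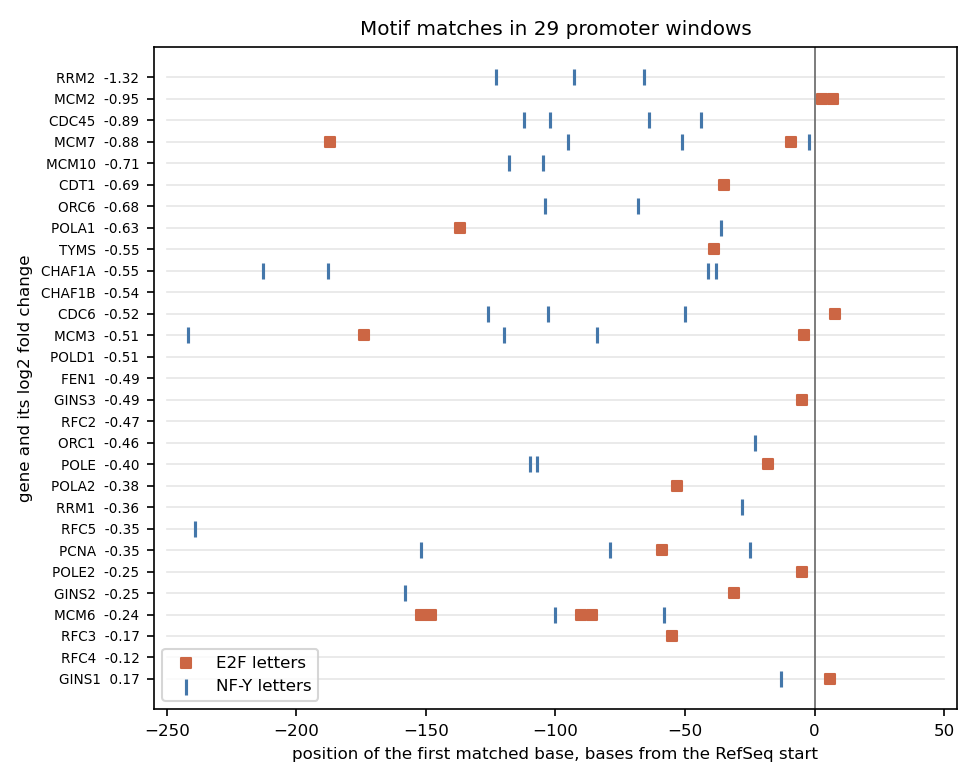
Position of E2F letters (squares) and NF-Y letters (bars) in 29 promoter windows, as bases from the RefSeq start (horizontal axis), with genes ordered by log2 fold change (vertical axis, value beside each name). E2F matches of 14 of 16 genes begin within 60 bases of the start and occur in genes with large and small falls.

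For 10 of the 32 genes another listed gene starts within 1000 bases on the opposite strand, an arrangement in which both can share a promoter region. Of these neighbours 5 fell, 2 rose and the rest were not called, beside 28.1% lower and 28.6% higher over all tested genes. PCNA and CDS2, a phospholipid synthesis enzyme gene whose start is 160 bases away, went in opposite directions, with CDS2 at 1092, 1151 and 1090 normalized counts in siNT and 2222, 2134 and 2340 in siYAP (log2 1.01, limma adjusted p = 3.60e-13). ORC6 fell while VPS35, a retromer subunit gene that starts 125 bases away, rose slightly (log2 0.17). MCM4 and PRKDC, the DNA-dependent protein kinase gene, both fell, PRKDC by less (log2 -0.20). The antisense transcript TYMSOS, which overlaps TYMS, fell with it, from 79.6 ± 7.99 to 37.3 ± 3.65 normalized counts (SD, n = 3). With the strand setting not given, reads of TYMS and TYMSOS may not have been kept apart.

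**Figure D5:**
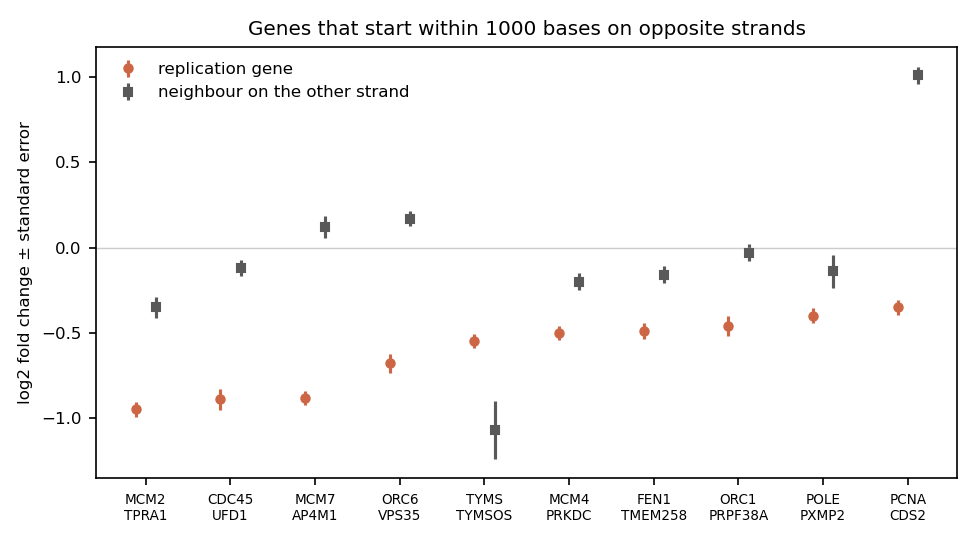
Log2 fold change (vertical axis, bars are standard errors from limma) of 10 replication genes and of the gene that starts within 1000 bases of each on the opposite strand. All 10 replication genes lie below 0, while the neighbours range from -1.07 (TYMSOS) to 1.01 (CDS2).

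In all, 10 of the 32 genes overlap another listed gene in the annotation, and where that gene is on the opposite strand the reads can be told apart only if strand was used in counting. ENOSF1, which overlaps TYMS, rose (log2 0.15), and WSB2, which overlaps RFC5, fell (log2 -1.09). FADS2 overlaps FEN1 on the same strand and rose (log2 0.53), and MORC3 overlaps CHAF1B on the same strand and rose (log2 0.57). MCM7 hosts the microRNA genes MIR25, which went from 50.8 ± 7.46 to 26.4 ± 6.84 normalized counts (SD, n = 3) and fell by 0.94 on the log2 scale, and MIR106B, at 8.02 ± 5.85 and 6.33 ± 1.57, which was not called (log2 -0.11). Reads of host and microRNA genes cannot be told apart here.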

How the data were processed

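Values were available for 6 poly(A) RNA libraries. The deposited signal values are read counts per gene that the authors divided by a size factor for each library. The submitters' processing notes name HISAT2, HTSeq, DESeq2 and FastQC, and list hg19 and mm9 as builds. What each build was used for, tool versions, the annotation, the strand setting and any gene filter: not given in the sources used here. In each library 100% of values were whole multiples of 1 read within 0.01, so whole reads were recovered.

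Values were tested as log2(value + 1) with limma 3.58.1 (trend, robust; R 4.3.3) for the 17200 genes that reached 1 in at least 3 libraries, with group as the only term. Fold changes on this scale understate changes of low genes. P-values were adjusted by Benjamini-Hochberg over all tested genes. The fit was tested on simulated data. Alternatives were edgeR 4.0.16 (quasi-likelihood) and DESeq2 1.42.0 on the recovered reads, other scalings and filters, a pseudocount of 0.1, limma with no trend, a block for the replicate number, and each library left out.

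Symbols came from a table of gene identifiers (16662 of 17211 matched), then GENCODE 29, which also gave GRCh38 coordinates and exon lengths. Promoters are those of RefSeq on GRCh38.p14, matched by symbol. The members and gene lists were chosen with earlier results of these data known. In each role the members with the largest and the smallest change, and any that rose or were not called, are given by library. Of the other replication genes, the 2 largest called changes in each role are named. RPA1, RPA3, RRM2B, RNASEH2A, RNASEH2B, ASF1A, ASF1B, DONSON, ATR, the ORC genes and the overlapping genes were named after their values were seen.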

Additional observations from a re-analysis of the deposited data

How the results depend on the processing

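The number of replication genes called lower was 30 of 32 in the analysis reported and 28 to 31 under the 16 alternatives. The number called higher, GINS1, was 1 and became 0 with limma without trend (1 at an unadjusted p under 0.05) and ranged from 0 to 1 when 1 library was left out, the 0 coming from leaving out siNT replicate 2 (1 at an unadjusted p under 0.05). EdgeR and DESeq2 each called 30 lower and 1 higher. The median log2 fold change of -0.49 became -0.40 with equal totals. With the replicate number as a block the counts were 30 and 1 and the median -0.49. Correlations of same-numbered deviations from the group mean were -0.338, -0.00827 and -0.0685, and 0 of 6 libraries correlated best with their own number. With 3 libraries per group these deviations are tied to each other. They cannot tell whether same-numbered libraries were handled together. The 50 genes tracked singly were the 32 members, YAP1 and, of the other replication genes, up to 2 with the largest called changes in each role. Those other genes were picked for large changes, so their stability says little of the rest. Genes called close to the threshold, such as ORC5 and E2F6, were not tracked. Among the 50 genes, 789 of 800 alternative values kept direction and call, 10 lost the call, 1 gained it and 0 reversed. Those that changed belong to GINS1, POLE2, RFC3 and RFC4, the members with the smallest changes or lowest counts. Without trend in limma, POLE2 (adjusted p = 0.0503), RFC3 (adjusted p = 0.109) and GINS1 (adjusted p = 0.0565) were not called, and with equal totals POLE2 (adjusted p = 0.0972) and RFC3 (adjusted p = 0.257) were not called. Over all genes, edgeR called 4659 lower and 4923 higher of 15659, and DESeq2 4385 and 4393. The lowest count behind a member was 333 reads (POLE2).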
